A study of Mus musculus with 28 samples.

Results

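KEAP1-KO tumors with the same edited gene were grown in 2 settings, and the RNA of the tumors in one setting was compared with that in the other. In Experiment A the mice carried a KEAP1-KO tumor on the right flank and a WT tumor on the left flank, and in Experiment B they carried a KEAP1-KO tumor on the left flank and a DKO tumor on the right flank. The 8 KEAP1-KO tumors, 4 of each experiment, were chosen by their labels, and every row of the expression table with a gene symbol was followed, which is 18509 of 43143 rows. The whole series holds 28 libraries, of which 16 are tumors and the others cultured cells.

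All tumors grew from the mouse line 3LL, which derives from a Lewis lung carcinoma, placed under the skin of albino C57BL/6 male mice of 6 weeks and taken at day 10. KEAP1-KO lines are CRISPR-edited and each grown from a single colony, with an inserted base in exon 2 of both Keap1 copies. More than one such line was made, and no source used here says whether both experiments used the same one. DKO cells were made from KEAP1-KO cells by also editing the gene of NRF2, again as a single clone, and WT cells are unedited. No source used here says which host a replicate number stands for. Experiment, flank and the tumor on the opposite flank differ together between the 2 KEAP1-KO groups, and the KEAP1-KO line may differ with them, so their parts in any difference cannot be told apart.

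KEAP1 is the adaptor through which a CUL3 ubiquitin ligase marks NRF2 for degradation, and cells without KEAP1 accumulate NRF2, which switches on genes of antioxidant defense, glutathione synthesis and detoxification. A tumor also holds cells of its host. Macrophages, which clear debris, present antigen and secrete cytokines, are commonly abundant among them, beside neutrophils, lymphocytes, endothelial cells and fibroblasts. In bulk RNA, fewer cells of a type and less RNA per cell cannot be told apart.

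Values are log2(normalized count + 4), so a row without reads has a value of 2 and differences of low rows are understated. Read totals ran from 4486722 to 5208799 for KEAP1-KO tumors in Experiment A and from 4375266 to 5299383 in Experiment B, and the groups did not differ detectably in this depth (exact permutation test, two-sided, p = 0.886, where 0.0286 is the smallest p that 4 against 4 tumors allow). The share of rows without reads was 17.4% ± 1.33 (SD, n = 4) in Experiment A and 16.7% ± 0.722 (n = 4) in Experiment B. Keap1 (gene row) had the values 7.55, 7.13, 7.86 and 7.27 in Experiment A and 7.51, 7.50, 7.30 and 7.52 in Experiment B, while the 4 WT tumors had at least 8.78, below which all 8 KEAP1-KO libraries lay. The row of Nqo1, the quinone reductase used as a readout of NRF2, lay between 11.93 and 12.51 in the 8 KEAP1-KO tumors, against at most 7.06 in WT and 6.25 in DKO tumors. As whole profiles the 2 KEAP1-KO groups were close. Over the rows with a symbol, the median absolute log2 difference between 2 tumors had a median of 0.30 for pairs of Experiment A, 0.26 for pairs of Experiment B and 0.30 for pairs that cross the experiments, while pairs of a WT and a KEAP1-KO tumor of Experiment A had 0.43 and those within Experiment B that join KEAP1-KO with DKO had 0.38.

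KEAP1-KO tumors grown opposite DKO tumors had higher levels of macrophage and other leukocyte genes than KEAP1-KO tumors grown opposite WT tumors. Of 15503 rows with a symbol that passed the filter on low values, 51 were called at an adjusted p under 0.05 (limma over all 16 tumors, Benjamini-Hochberg adjustment over 34215 rows), 49 of them higher and 2 lower in Experiment B. Over all rows tested, 0.164% were called, 0.152% as higher and 0.0117% as lower. The 49 differences had a median of 0.95 on the log2 scale and ran from 0.62 to 1.496 (Tifab), apart from 1.89 for Foxred1, a row that passed the filter only through the 4 tumors of Experiment B, and the median of all rows with a symbol was 0.04. In each of the 51 rows the 4 values of one group lay wholly above those of the other, as they did in 4.11% of all rows tested, 2.55% with the higher values in Experiment B and 1.56% with the lower ones. Rows with a symbol were divided in this way with 601 higher and 221 lower in Experiment B. The number of called rows rested on single tumors and on the fit. With the spread taken from the 8 KEAP1-KO tumors alone, limma called 5 rows, 3 of them among the 56, and with a replicate block on these tumors 0 (2173 at an unadjusted p under 0.05). From 56 rows, with and without a symbol, it became 1, 13 and 37 when replicate 1, 2 or 4 of Experiment A was left out, and 35, 10, 37 and 0 when replicate 1, 2, 3 or 4 of Experiment B was left out. All 56 rows kept their direction in each fit that left out 1 tumor, with an unadjusted p of at most 4.43e-04, and in the replicate block fit, with one of at most 6.52e-03.

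**Figure D1:**
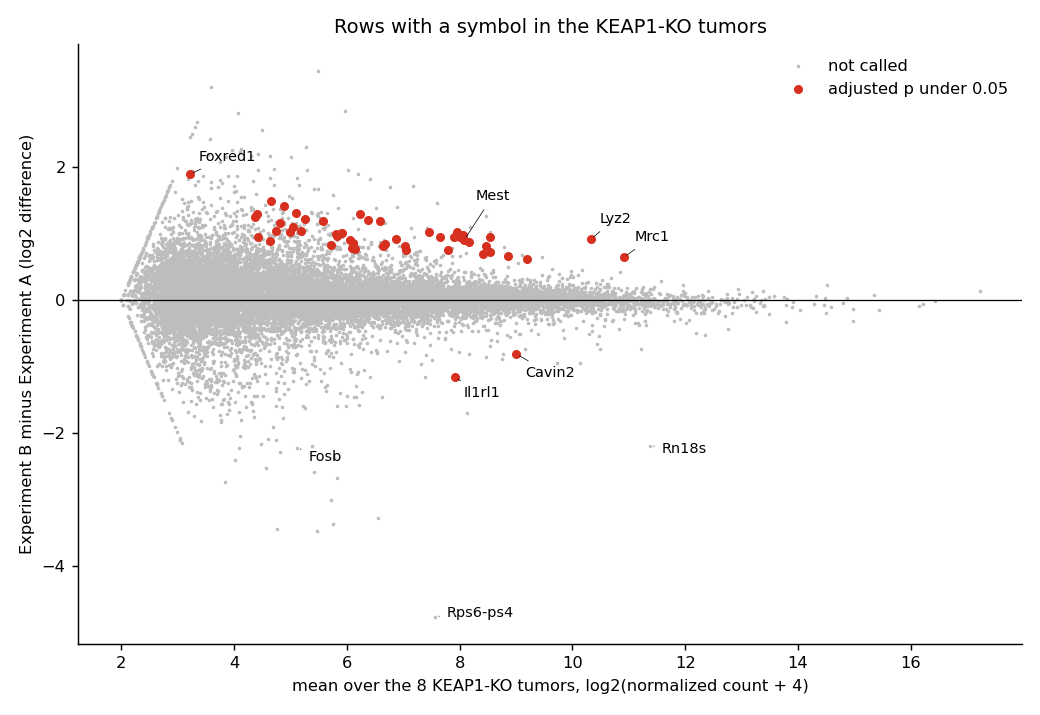
Experiment B minus Experiment A in KEAP1-KO tumors (log2 difference, vertical axis) against the mean over the 8 tumors (log2(normalized count + 4), horizontal axis) for 15503 rows with a symbol. The 49 rows called higher (red) form a band above 0 from low to high levels, and Il1rl1 and Cavin2 are the 2 rows called lower.

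The promoters of the 3 called rows with the lowest p that the RefSeq table holds are shown, because these genes moved together. The sequences are the 250 bases before the start of the gene, read on the gene's strand, from RefSeq on build GRCm38.p6, with GAGGAA on either strand in capitals. These letters are the core bound by PU.1, the factor encoded by Spi1 that directs macrophage and other myeloid genes, and other factors of its family read similar letters.
Pira2, chr7:3845052-3845301, minus strand: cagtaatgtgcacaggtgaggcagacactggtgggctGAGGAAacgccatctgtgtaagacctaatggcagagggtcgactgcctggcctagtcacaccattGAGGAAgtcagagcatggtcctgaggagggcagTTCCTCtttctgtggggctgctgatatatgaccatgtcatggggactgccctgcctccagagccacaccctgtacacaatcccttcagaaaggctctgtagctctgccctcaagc
C1qb, chr4:136886201-136886450, minus strand: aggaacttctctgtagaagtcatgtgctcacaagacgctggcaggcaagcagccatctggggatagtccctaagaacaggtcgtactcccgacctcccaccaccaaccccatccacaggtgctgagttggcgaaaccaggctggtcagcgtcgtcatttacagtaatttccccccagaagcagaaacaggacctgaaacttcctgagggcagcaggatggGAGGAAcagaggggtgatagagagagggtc
Itgam, chr7:128062390-128062639, plus strand: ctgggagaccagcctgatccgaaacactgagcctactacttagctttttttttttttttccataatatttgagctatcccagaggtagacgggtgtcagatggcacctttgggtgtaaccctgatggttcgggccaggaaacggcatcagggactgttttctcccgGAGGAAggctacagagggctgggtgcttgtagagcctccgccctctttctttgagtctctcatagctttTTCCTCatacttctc

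The table held promoters for 36 of the 49 genes called higher, 45 promoters in all, and 18 of these (40%) carried the letters, against 23.3% of all 32851 promoters of the table. A match is a description and not a bound site, and no binding was measured. Spi1 itself (a protein coding transcript row) had a mean of 5.83 in Experiment A and 6.31 in Experiment B. The difference of 0.49 was not called (adjusted p = 0.394, limma with Benjamini-Hochberg adjustment), although the groups did not overlap (5.57 to 6.16 and 6.19 to 6.49).

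Genes of the complement component C1q, which macrophages secrete and which tags dying cells and immune complexes, were among the rows that rose. C1qb (ENSMUSG00000036905, gene row) had 7.38, 7.67, 7.49 and 7.56 in the 4 tumors of Experiment A and 8.36, 8.50, 8.49 and 8.54 in those of Experiment B. No tumor of one group reached the other, and the difference was 0.95 (standard error 0.13, 95% interval 0.68 to 1.22, adjusted p = 0.0141, limma with Benjamini-Hochberg adjustment). C1qa rose by 0.76, and C1qc (a processed transcript) differed by 0.66 without being called (adjusted p = 0.0849, limma). Lyz2, the lysozyme of macrophages and neutrophils (gene row), had 9.80, 9.89, 9.66 and 10.11 in Experiment A and 10.67, 10.73, 10.82 and 10.90 in Experiment B, without overlap and with a mean shift of 0.91 (standard error 0.15 and adjusted p = 0.0285, limma). It was the second highest of the called rows, after the mannose receptor gene Mrc1 (a retained intron), whose mean went from 10.59 to 11.23. Mpeg1, which encodes a pore-forming protein of phagosomes, rose by 0.95, the cysteine protease genes Ctss and Ctsc by 0.95 and 0.98, the scavenger receptor gene Msr1 by 1.03 and Gm2a, a lysosomal lipid-binding protein gene, by 0.92. Cybb, which encodes a subunit of the phagocyte NADPH oxidase, rose by 1.19.

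Csf1r, the receptor of the growth factor on which macrophages depend (a protein coding transcript row), had 7.37, 7.21, 7.75 and 7.45 in Experiment A and 8.27, 8.59, 8.30 and 8.73 in Experiment B. All values of Experiment B were the higher ones, and the difference was 1.02 (standard error 0.17, 95% interval 0.67 to 1.38, adjusted p = 0.0323, limma). Itgam, the integrin chain known as CD11b (a processed transcript), had 7.57 to 8.03 in Experiment A and 8.38 to 8.71 in Experiment B and rose by 0.87 (standard error 0.12 and adjusted p = 0.0141, limma). The Fc receptor genes Fcgr3 and Fcgr2b, which bind antibody, rose by 0.84 and 0.69, and the activating receptor gene Pira2 by 1.22. Sirpa, whose product reads the do-not-eat signal CD47, rose by 0.95. Among receptors of chemoattractants, Ccr1 rose by 0.90 and the complement receptor gene C5ar1 by 0.81, and the chemokine gene Cxcl16 (a transcript subject to nonsense-mediated decay) by 1.15. Ccr2, the receptor of inflammatory monocytes (gene row), had a larger difference of 1.67 but was not called (adjusted p = 0.194, limma), although its groups did not overlap. Ly6c2, another marker of these monocytes (a retained intron), had means of 2.22 and 2.44 with overlap.

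**Figure D2:**
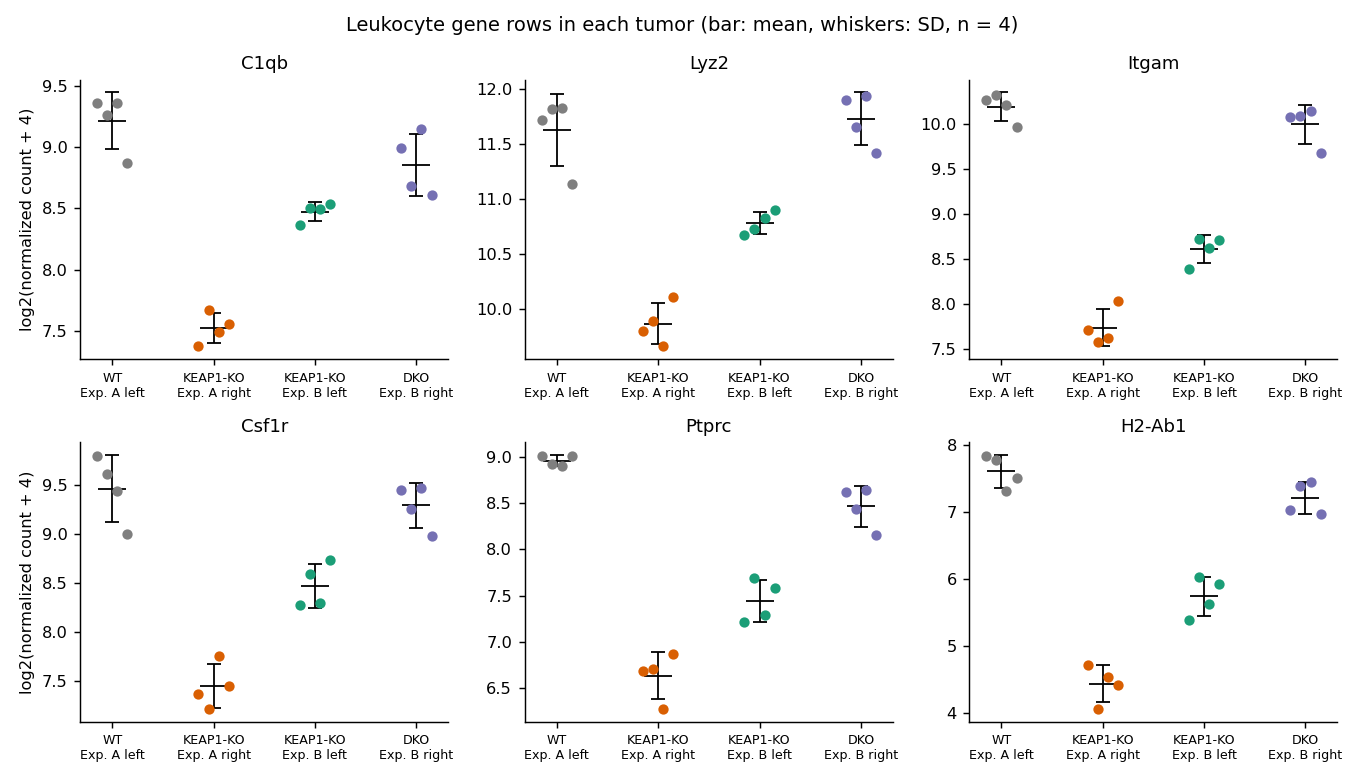
Levels of 6 rows called higher in Experiment B, in each of the 16 tumors (log2(normalized count + 4)), with the mean and SD of each group of 4. In each panel the 4 KEAP1-KO tumors of Experiment B lie above those of Experiment A. The vertical axes do not start at 0.

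Several genes shared by most leukocytes were also called higher. Ptprc, the leukocyte antigen CD45 (a retained intron), had 6.69, 6.71, 6.28 and 6.87 in Experiment A and 7.22, 7.69, 7.29 and 7.58 in Experiment B. The groups did not overlap, and the difference was 0.81 (standard error 0.14, 95% interval 0.51 to 1.11, adjusted p = 0.0406, limma). The surface genes Cd52 and Cd37 rose by 1.30 and 0.94, and Lcp1, an actin-bundling protein of leukocytes, by 0.82. The adaptor and signaling genes Dok2, Dock8 and Sla rose by 1.42, 1.30 and 1.25, and Ikzf1, a transcription factor of the blood lineages, by 1.02. Of 17 rows of MHC class I and antigen processing, 1 was called, 2 had an unadjusted p under 0.05 with a higher level in Experiment B and 0 with a lower one, and the median difference was 0.21, against 0.13 to 0.33 when 1 tumor was left out (0.33 without replicate 1 and 0.13 without replicate 2 or 4 of Experiment B, and 0.14 without replicate 3 of Experiment A). H2-Ab1, a chain of MHC class II (a retained intron), had 4.71, 4.06, 4.54 and 4.43 in Experiment A and 5.39, 6.03, 5.63 and 5.92 in Experiment B, with no overlap and a mean shift of 1.31 (standard error 0.18 and adjusted p = 0.0141, limma). H2-K1, a class I heavy chain gene (a retained intron), rose by 1.20. B2m, the light chain of class I (gene row), had means of 11.62 in both groups, with a 95% interval of the difference from -0.15 to 0.15.

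A few of the rows that rose are not known as leukocyte genes. Mest, an imprinted gene of the mesenchyme (gene row), had 7.40, 7.63, 8.08 and 7.41 in Experiment A and 8.21, 8.51, 8.69 and 8.72 in Experiment B, while its mean was 7.63 in WT and 6.96 in DKO tumors. Its 4 values of Experiment B were above each value of Experiment A, by 0.90 on average (standard error 0.17, adjusted p = 0.0493, limma). Meox2, a homeobox gene of mesoderm and vessels, rose by 0.89 from a low mean of 4.19. Foxred1 (a transcript subject to nonsense-mediated decay, of a gene for assembly of the respiratory complex I), was without reads in 3 of 4 tumors of Experiment A and had 3.08 in the other, against 3.47 to 4.70 in Experiment B. It was tested only because the tumors of Experiment B reached the count minimum, which no WT, DKO or Experiment A tumor did, so its call carries no weight of its own. In cultured KEAP1-KO cells 43 of the 49 rows had a mean under 3, with a median of 2.08, and the highest was Tgfbi with 7.41. The share of all rows tested with such a mean was not counted, so this only describes the 49 rows.

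Of 26 macrophage and monocyte markers, all of which passed the filter, 7 were called higher and 0 lower, 18 had an unadjusted p under 0.05 with a higher level in Experiment B and 0 with a lower one, and the median difference was 0.76. Over all rows tested, 4.59% had such a p with a higher level and 3.11% with a lower one, 7.69% together, and the median difference was 0.01. The mean of the 26 markers was 6.11, 5.87, 6.07 and 6.26 in the tumors of Experiment A and 6.63, 6.79, 6.65 and 6.88 in those of Experiment B. Summed as normalized counts, the list reached 4491 to 5515 in Experiment A and 7358 to 8471 in Experiment B, and the ratio of the group means was 1.62. The groups did not overlap on either scale. Markers with a lower mean in Experiment B included Cd14, Plac8 and Chil3, none of them at an unadjusted p under 0.05. The rows of Cd14 and Cd68 were also present in cultured KEAP1-KO cells, with means of 6.73 and 6.83, as was that of Mertk, a receptor for the uptake of dying cells (a processed transcript), with 7.01. Mertk differed by 0.44 without overlap and was not called (adjusted p = 0.0638, limma). Plac8 and Chil3 had means under 4 in both groups of tumors. Of 16 genes shared by leukocytes, 4 were called higher, 13 had an unadjusted p under 0.05 with a higher level and 0 with a lower one, and the median difference was 0.75. The only one with a lower mean was Cytip, an adhesion regulator (a processed transcript), with a difference of -0.14 (adjusted p = 0.923, limma). Of 8 MHC class II genes that passed the filter, 7 had an unadjusted p under 0.05 with a higher level, H2-Ab1 alone was called, and the median difference was 1.16. The row of Cd74, the invariant chain (a retained intron), differed by 1.38 with an adjusted p of 0.0507 (limma).

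Lists for other leukocytes held 0 called rows. The neutrophil list had a median difference of -0.50, with 2 of 11 members higher in mean and 9 lower, 1 and 3 of them at an unadjusted p under 0.05. Without replicate 3 of Experiment A the median was -0.76 and without replicate 1 of Experiment B -0.30. Summed as normalized counts, the list had 656 to 948 in Experiment A and 426 to 1397 in Experiment B, with overlap and a ratio of the group means of 1.21, above 1 where the median is below 0. Retnlg (gene row), a gene of mature neutrophils, had 3.92, 3.96, 2.79 and 3.56 in Experiment A and 2.58, 2.55, 2 and 2.36 in Experiment B, a difference of -1.18 that was not called (adjusted p = 0.525, limma). The calprotectin genes S100a9 and S100a8 had differences of -1.17 and -0.80, and Mmp9, a gelatinase made by neutrophils and other cells, had 1.27 in the opposite direction, none of them called. T cell markers were near the limit of detection. The highest value of Cd3d, Cd3e and Cd3g in the 8 KEAP1-KO tumors was 2.59, 2.35 and 2.65, and none of these rows passed the filter. Of 9 T cell rows that did pass, 0 had an unadjusted p under 0.05, and the median difference was 0.33, against 0.14, 0.21 and 0.22 without replicate 1 or 4 of Experiment A or replicate 2 of Experiment B. Cd8a, a chain of the coreceptor of cytotoxic T cells (gene row), had a mean of 4.56 in Experiment A and 4.01 in Experiment B, without overlap (adjusted p = 0.685, limma). Cultured KEAP1-KO cells had a Cd8a mean of 3.87. The NK cell receptor genes Ncr1 and Klrb1c, which did not pass the filter, were without reads in all 4 tumors of Experiment A and had at most 2.33 and 2.55 in Experiment B. Of 7 NK cell rows that passed, 4 had a higher mean in Experiment B, and 1 in each direction had an unadjusted p under 0.05. The higher one is also in the macrophage and monocyte list, and the lower one was Klra4. The median difference was 0.08, and it ran from -0.08 to 0.16 when 1 tumor was left out. Klra4, an NK receptor gene (gene row), had means of 6.88 and 6.53 (adjusted p = 0.646, limma). In cultured KEAP1-KO cells its mean was 8.02, so this row does not stand for NK cells alone. The B cell list kept 3 rows and the dendritic cell list 8, with median differences of 0.00 and 0.09, and 0 of these rows had an unadjusted p under 0.05. With 1 tumor left out these medians ran from -0.18 to 0.23 and from -0.03 to 0.14. In cultured KEAP1-KO cells Pax5, a row of the B cell list, had a mean of 7.23 and the highest row of the dendritic cell list 6.65. The mast cell and eosinophil list had a median of 0.54 over 8 rows (0.99 with a pseudocount of 0.4), and Cpa3, a protease gene of mast cells (gene row), went from a mean of 3.39 to 4.73 with overlap between the groups (adjusted p = 0.350, limma).

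Interferon genes held 0 called rows and chemokine and cytokine genes 1. Of 40 interferon response genes, 35 had a higher mean in Experiment B, 9 with an unadjusted p under 0.05, 0 were called and the median difference was 0.43. Gbp7, a guanylate-binding protein gene (gene row), had 5.92, 5.98, 6.18 and 5.96 in Experiment A and 6.88, 6.76, 6.91 and 6.84 in Experiment B, a difference of 0.84 without overlap that was not called (adjusted p = 0.352, limma). Of 27 chemokine and cytokine genes, 19 had a higher mean in Experiment B, 5 with an unadjusted p under 0.05, and the median difference was 0.26. Cxcl16 was the only one called, and Ccl9 (a processed transcript) and Ccl6 (a retained intron), which myeloid cells make, differed by 0.95 and 0.70 (adjusted p = 0.0920 and 0.289, limma). Ptgs2, the highest member and the enzyme that starts prostaglandin synthesis, had means of 12.05 and 11.76 with overlapping groups. Stromal lists had medians of 0.21 over 16 endothelial and 0.23 over 25 fibroblast and matrix rows and 0 calls. At an unadjusted p under 0.05, 5 endothelial and 3 fibroblast rows were higher and 0 lower. The endothelial median was 0.14 without replicate 2 of Experiment A and 0.34 without replicate 1 of Experiment B, and the fibroblast median 0.14 and 0.41 without replicate 1 or 3 of Experiment A and 0.37 without replicate 4 of Experiment B. Whether these cell types play a part in the macrophage result was not tested. Plvap, a gene of fenestrated endothelium, differed by 0.38 and Rgs5, a pericyte gene, by 0.69 (adjusted p = 0.368 and 0.285, limma).

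**Figure D3:**
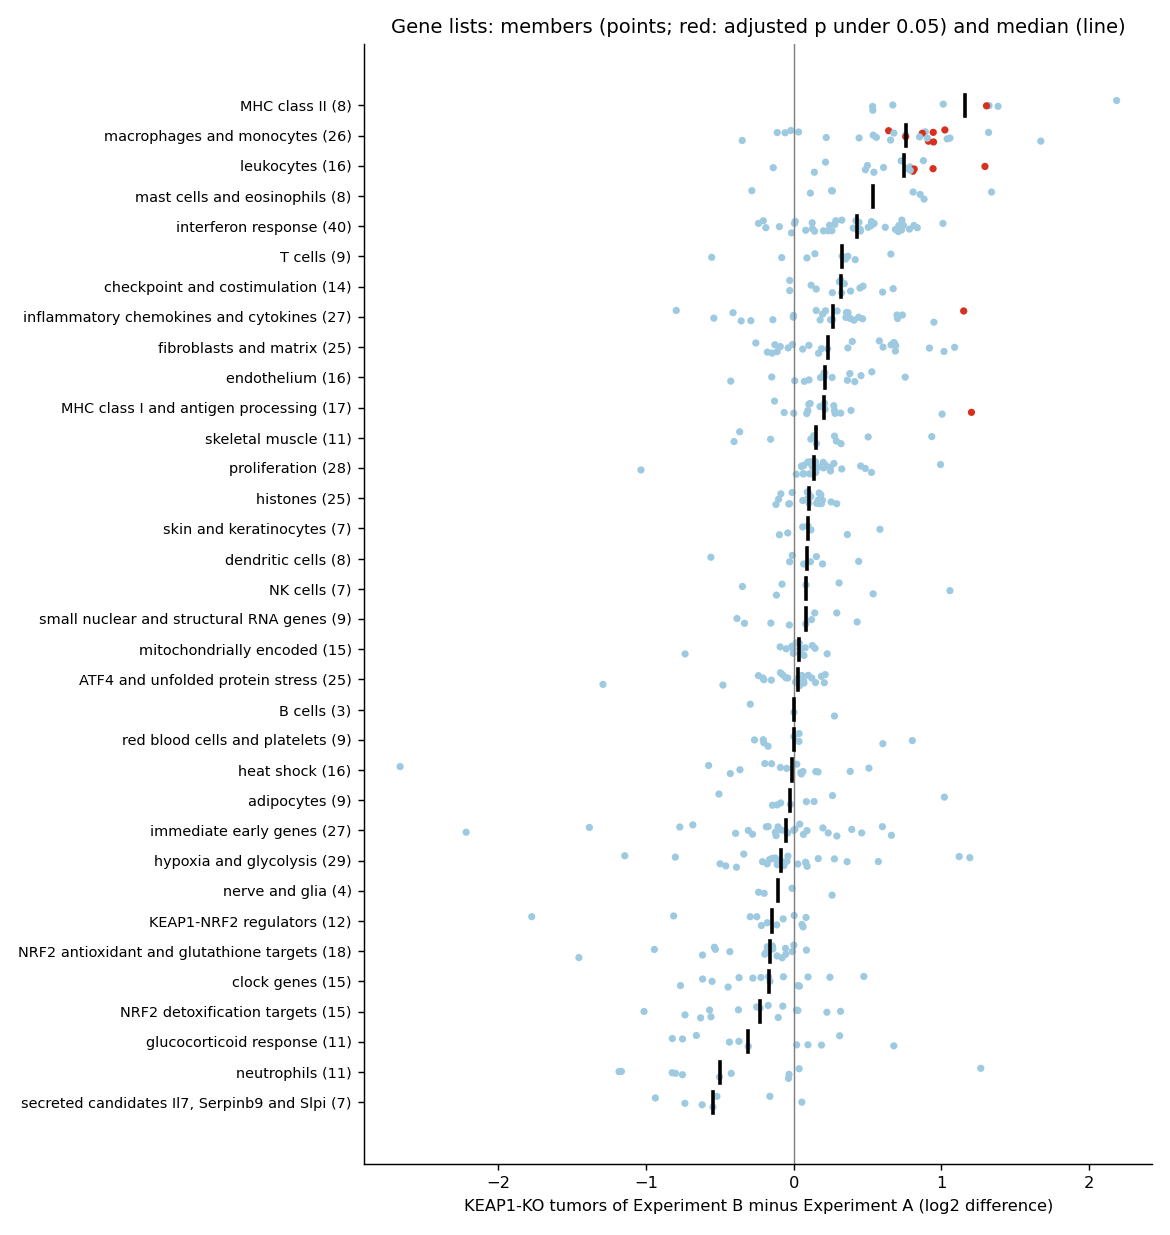
Experiment B minus Experiment A in KEAP1-KO tumors (log2 difference) for the members of 34 gene lists, 1 list a line with the number of rows kept in brackets, and the list median as a black line. MHC class II, macrophage and leukocyte lists have the highest medians (1.16, 0.76 and 0.75), and the list of Il7, Serpinb9 and Slpi genes the lowest (-0.55).

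Most genes that NRF2 induces had slightly lower means in Experiment B. Of 18 antioxidant and glutathione genes 16 had a lower mean, 5 of them with an unadjusted p under 0.05, and of 15 detoxification genes 11 had a lower mean, again 5 with such a p. The mean of the antioxidant list lay between 10.23 and 10.38 in Experiment A and between 9.76 and 10.16 in Experiment B, without overlap. That of the detoxification list lay between 7.59 and 8.08 and between 7.21 and 7.77, with overlap. In both lists 0 were called and 0 had an unadjusted p under 0.05 with a higher level, and the medians were -0.16 and -0.23. Gclc, the catalytic subunit of glutathione synthesis (a processed transcript), had 10.71, 10.65, 10.60 and 11.0001 in Experiment A and 10.16, 10.38, 10.27 and 9.99 in Experiment B. The groups did not overlap, and the difference was -0.54 (95% interval -0.78 to -0.30, adjusted p = 0.0866, limma). Gsta4, a glutathione S-transferase gene (gene row), differed by -0.57, the exporter gene Abcc4 by -0.74 and Nqo1 by -0.17, and none was called. Of 7 rows of the secreted factor genes Il7, Slpi and the Serpinb9 family, 6 had a lower mean in Experiment B, 3 of them with an unadjusted p under 0.05, 0 were called and the median difference was -0.55. The Serpinb9 genes are close copies, so their reads may be split among them. Slpi, a protease inhibitor, had 10.64, 10.22, 9.30 and 10.64 in Experiment A and 8.46, 9.70, 9.43 and 9.46 in Experiment B, with overlap and a difference of -0.94 (adjusted p = 0.525, limma). Serpinb9b (a processed transcript) differed by -0.55 (adjusted p = 0.382, limma), Serpinb9e had means of 6.54 and 6.02, and Il7, a cytokine of lymphocytes (a processed transcript), 6.79 and 6.85. The row of NRF2 itself (Nfe2l2, a processed transcript) had means of 5.84 and 5.59 and did not differ detectably (adjusted p = 0.705, limma).

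The KEAP1-KO tumors of Experiment B had macrophage gene levels between those of Experiment A and those of WT and DKO tumors. Their list mean was 6.63 to 6.88, against 5.87 to 6.26 in KEAP1-KO tumors of Experiment A, 7.58 to 8.04 in WT tumors and 7.46 to 8.03 in DKO tumors. For the interferon list the ranges were 4.01 to 4.24 in KEAP1-KO tumors of Experiment B, 3.72 to 3.85 in those of Experiment A, 5.69 to 6.66 in WT and 5.73 to 6.74 in DKO tumors. The median differences of the macrophage list were 0.76 between Experiment B and Experiment A, -1.74 between KEAP1-KO and WT tumors of Experiment A and 0.76 for DKO minus KEAP1-KO in Experiment B, and those of the interferon list were 0.43, -2.43 and 1.95. The comparisons within each experiment share their KEAP1-KO libraries with the comparison between experiments, so these values are set side by side without a test. For the detoxification genes the medians were -0.23, 2.55 and -2.14. Between DKO and WT tumors, a comparison that shares no library with the one between the KEAP1-KO groups, 8 of the 49 rows were called, against 10.6% of all rows tested, and the median difference of the 49 was -0.36.

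**Figure D4:**
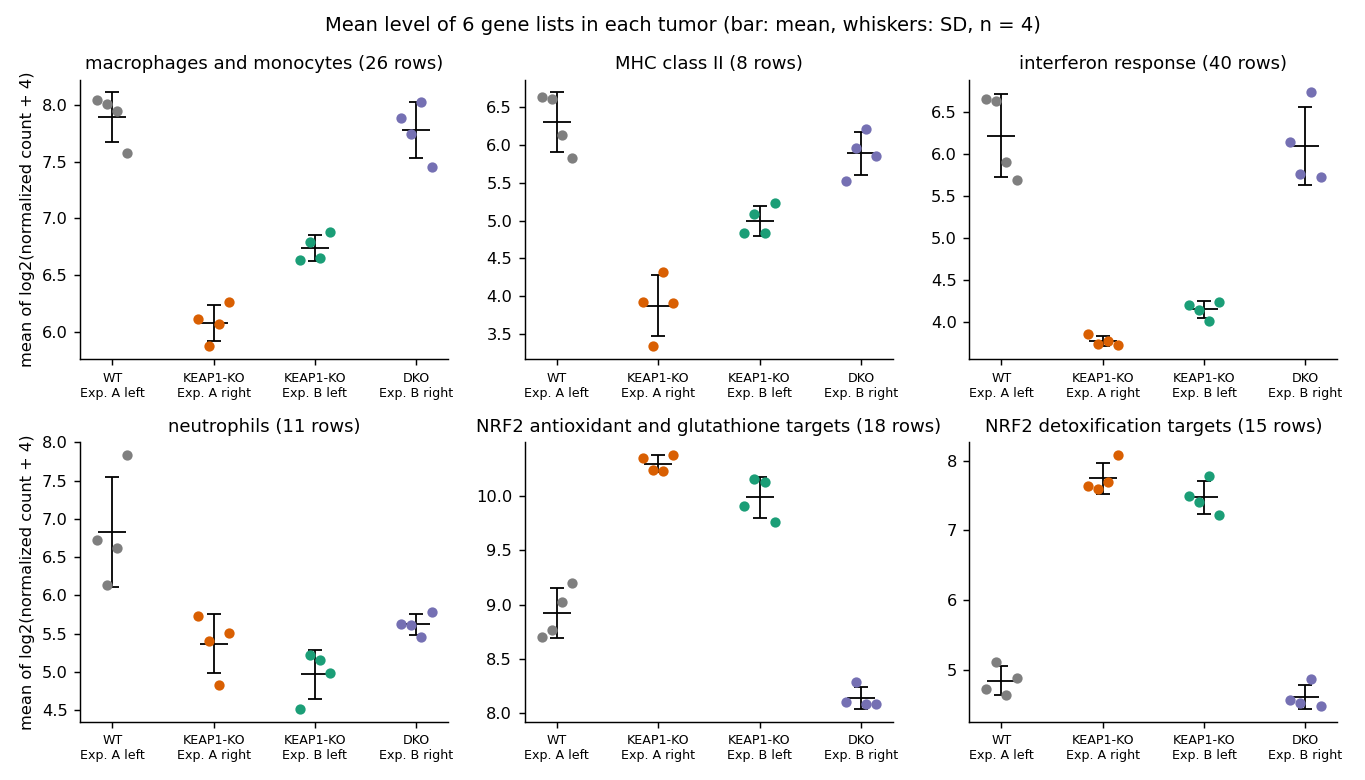
Mean of log2(normalized count + 4) over the kept rows of 6 gene lists in each of the 16 tumors, with the mean and SD of each group of 4. The macrophage, MHC class II and interferon lists lie, in Experiment B KEAP1-KO tumors, above those of Experiment A without overlap and below those of WT and DKO tumors. The antioxidant list lies below that of Experiment A without overlap, and the neutrophil and detoxification lists of the 2 KEAP1-KO groups overlap. The vertical axes do not start at 0.

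The 2 rows with a symbol that fell were Il1rl1 and Cavin2. Il1rl1, the receptor of interleukin-33 (a protein coding transcript row), had 8.78, 8.63, 7.89 and 8.67 in Experiment A and 6.90, 7.33, 7.85 and 7.25 in Experiment B. The highest tumor of Experiment B was just below the lowest of Experiment A, and the row fell by 1.16 on the log2 scale (standard error 0.20, adjusted p = 0.0434, limma). Cavin2, a coat protein gene of caveolae (gene row), had 9.60, 9.16, 9.49 and 9.38 in Experiment A and 8.39, 8.45, 8.95 and 8.62 in Experiment B, and it fell by 0.81 on the log2 scale (standard error 0.14, adjusted p = 0.0458, limma). Both are present in cultured KEAP1-KO cells, with means of 7.84 and 10.05. Among uncalled rows without overlap, Fosb, an immediate early gene (a retained intron), differed by -2.22 (adjusted p = 0.131, limma), Pthlh, the parathyroid hormone-like hormone gene, by -0.96, Cebpd, a stress-induced transcription factor gene, by -0.91 and Ccn1, a matrix signaling gene, by -0.88. In the opposite direction, Cyth4, an exchange factor of leukocytes, differed by 1.08 (adjusted p = 0.0595, limma). The list of 27 immediate early genes had a median of -0.05.

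The row of Rn18s, the 18S ribosomal RNA, was lower in each KEAP1-KO tumor of Experiment B than in any of Experiment A, without being called. Its values were 12.92, 13.00, 12.12 and 11.86 in Experiment A and 8.60, 10.95, 10.76 and 10.83 in Experiment B, with a mean shift of -2.19 (standard error 0.49 and adjusted p = 0.114, limma). WT tumors, which like the KEAP1-KO tumors of Experiment B came from the left flank, had 9.82 to 10.89, and DKO tumors, which like the KEAP1-KO tumors of Experiment A came from the right flank, had 11.58 to 13.37. The row was thus higher in both right-flank groups, and within each experiment flank and genotype cannot be told apart. Cultured WT, KEAP1-KO and DKO cells, which have no flank, had means of 13.68, 11.15 and 13.11 for this row. Slc27a1 (a retained intron), a fatty acid transporter gene, had 8.06 to 8.41 in Experiment A, and in Experiment B it was without reads in 2 tumors and had 7.92 and 7.75 in the others. Lars2 (a retained intron), a mitochondrial leucyl-tRNA synthetase gene chosen after its values were seen, had 9.06 to 9.74 in KEAP1-KO tumors of Experiment A, 8.48 to 9.10 in those of Experiment B, 8.65 to 8.99 in WT and 9.34 to 9.51 in DKO tumors. Its means in cultured WT, KEAP1-KO and DKO cells were 10.52, 9.75 and 10.34. The libraries were made after depletion of ribosomal RNA, and whether its completeness plays a part in these 3 rows was not tested. The processed pseudogene Rps6-ps4 had 9.48 to 10.34 in Experiment A, against 2 tumors without reads and values of 8.87 and 7.90 in Experiment B.

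**Figure D5:**
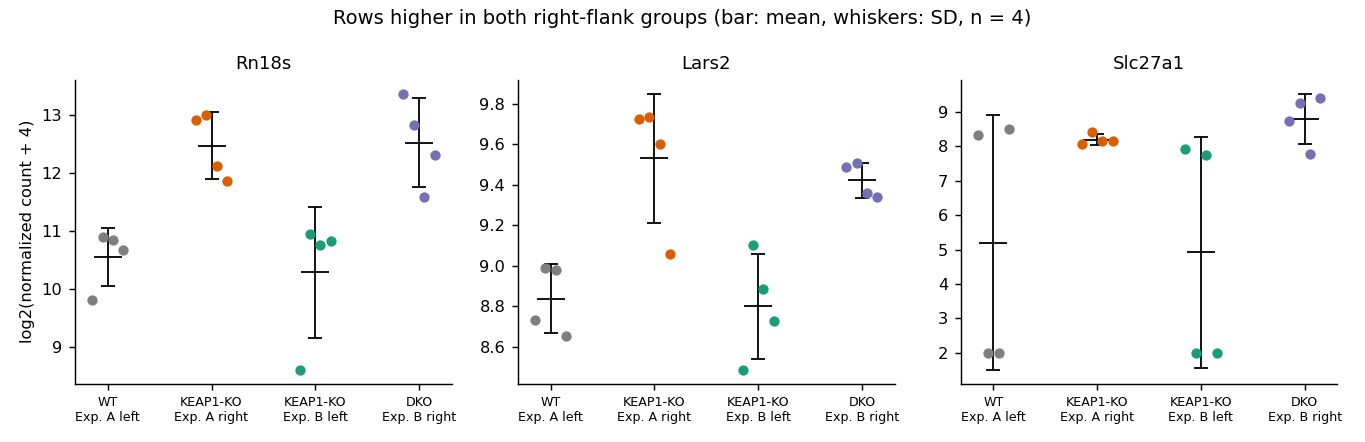
Levels of Rn18s, Lars2 and Slc27a1 in each of the 16 tumors (log2(normalized count + 4)), with the mean and SD of each group of 4. For Rn18s the 8 right-flank tumors lie at 11.58 or above and the 8 left-flank tumors at 10.95 or below. The vertical axes do not start at 0.

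Lists of proliferation, hypoxia, stress and housekeeping genes gave 0 calls. Their median differences were 0.14 for 28 proliferation rows, -0.08 for 29 hypoxia and glycolysis rows, 0.03 for 25 rows of ATF4 and unfolded protein stress, -0.01 for 16 heat shock rows, 0.10 for 25 histone rows and 0.04 for 15 mitochondrially encoded rows. With 1 tumor left out, the hypoxia median ran from -0.16 to -0.03, the ATF4 median from -0.02 to 0.03 and the heat shock median from -0.07 to -0.01. The histone median then ran from 0.05 to 0.27 and the mitochondrial one from 0.02 to 0.07. Of the proliferation rows 27 had a higher mean in Experiment B, 2 of them at an unadjusted p under 0.05, and their median was 0.06 without replicate 4 of Experiment A and 0.29 without replicate 3. The difference of a row with a symbol had a 95% interval of 0.51 to either side in the median, and for 70.1% of these rows the interval lay wholly between -1 and 1. Skeletal muscle, keratinocyte and red blood cell markers, genes of the tissues around a graft, had medians of 0.15, 0.10 and 0.00, whose sign changed with the tumor left out (-0.14 to 0.34, -0.02 to 0.22 and -0.27 to 0.14). The lowest of these came without replicate 4 of Experiment B for muscle, replicate 4 of Experiment A for keratinocytes and replicate 3 of Experiment A for red blood cells.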

How the data were processed

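RNA-seq libraries of 16 tumors and 12 cultured cell samples were used, grouped by their titles, with flanks from the study's text. The extraction protocol in the labels names mouse liver, against titles and methods. The authors depleted ribosomal RNA, made strand-specific libraries and quantified reads with Salmon against GENCODE mouse transcripts. The deposited values are log2(normalized count + 4). This was read from the table itself, in which every library has 2 as its minimum and the inverse transform gave whole reads (within 0.05) for 100% of low values. A TPM unit was allowed for in the plan and did not hold. No test on counts was run, and the fit used the deposited log2 values. Other per-sample columns numbered 0. A row is a gene or 1 transcript, often a minor one (by GENCODE vM21, retained introns make up 4187 of 10089 named transcript rows).

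Rows that reached 5 normalized counts in 4 or more of 16 tumors entered 1 limma 3.58.1 fit in R 4.3.3 (lmFit, eBayes with a trend), with Benjamini-Hochberg adjustment and a threshold of 0.05. The fit was also run on simulated data, and no statement here rests on that run. Distances, list means, exact permutation tests of depth and motif matches were computed in Python 3.11.15. Libraries are not stated to come from separate mice, so p-values measure the spread between these libraries.

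Members and lists were chosen with earlier results of these data known. Genes named are Keap1, Nfe2l2, Nqo1, Gsta4, Ptprc, Il7, Serpinb9e and Slpi, the 25 largest called differences in each direction, the highest member of each list and those with the lowest p in each direction, and the 10 highest and 10 lowest non-overlapping differences at a mean of at least 6. Further called rows and list members named with values were chosen after their values were seen. Some genes that these rules name are not reported here. Alternatives were a pseudocount of 0.4, no filter, a mean of at least 25, median centring, quantile normalization and a rescaling that leaves out the 20 highest rows. Others were the 8 KEAP1-KO tumors alone, no trend, array weights, a replicate block, other thresholds, summed rows and each tumor left out. A further one was a random block of same-numbered tumors within each experiment, which assumes a shared host.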

Additional observations from a re-analysis of the deposited data

Results flagged for a closer look

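Among the named genes and list means, 327 groups of 4 KEAP1-KO tumors were examined for a tumor far from the other 3, and 24 were found. Chance flags about 1 group in 20. Replicate 1 of Experiment A stood apart for Foxred1 at 3.08 (all 3 others at 2) and Pax5 at 6.98 (others 6.83 to 6.84). Replicate 2 of Experiment A stood apart for Sparc at 10.01 (others 10.30 to 10.34) and the mean of the list for endothelium at 6.13 (others 6.47 to 6.48). Replicate 3 of Experiment A stood apart for Fth1 at 14.43 (others 14.63 to 14.67), Cd14 at 7.39 (others 7.99 to 8.03), Mmp9 at 9.53 (others 7.04 to 7.40), Gapdh at 14.82 (others 15.11 to 15.13), Pfkfb3 at 2.98 (all 3 others at 2) and the mean of the list for proliferation at 8.63 (others 7.99 to 8.06). Replicate 4 of Experiment A stood apart for Cxcl16 at 4.61 (others 4.06 to 4.13), Ikzf1 at 4.72 (others 4.37 to 4.42) and Ctsc at 8.03 (others 7.36 to 7.46). Replicate 1 of Experiment B stood apart for Rn18s at 8.60 (others 10.76 to 10.95) and the mean of the list for checkpoint and costimulation at 4.55 (others 5.22 to 5.25). Replicate 2 of Experiment B stood apart for Ddx58 at 4.44 (others 3.01 to 3.17). Replicate 3 of Experiment B stood apart for Keap1 at 7.30 (others 7.50 to 7.52), Gapdh at 15.02 (others 14.87 to 14.90) and Cyth4 at 6.39 (others 6.83 to 6.88). Replicate 4 of Experiment B stood apart for Il5ra at 2.36 (others 2.95 to 3.01), Ttn at 7.77 (others 5.88 to 6.19), the mean of the list for skeletal muscle at 4.34 (others 3.58 to 3.63), the mean of the list for skin and keratinocytes at 5.05 (others 4.34 to 4.43) and the mean of the list for glucocorticoid response at 5.48 (others 6.08 to 6.18). Of these genes, Foxred1, Cxcl16, Ikzf1 and Ctsc were called higher in Experiment B.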

How the results depend on the processing

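The 56 called rows (49 higher with a symbol) became 20 (15) without the filter, 84 (76) with a mean of at least 25 normalized counts, 5 (3) with the 8 KEAP1-KO tumors alone, 8 (5) without the trend, 90 (82) when adjusted over rows with a symbol, 103 (83) at an adjusted p under 0.1, 25 (19) with a difference of at least 1 and 94 (86) with the rows of each gene summed. Leaving out 1 tumor gave 0 to 45 called rows, 0 to 35 of them with a symbol and higher, and without replicate 4 of Experiment B limma gave 0, with 2351 at an unadjusted p under 0.05. The median of the leukocyte list then was 0.64, within a range of 0.64 to 0.77, and that of the macrophage list ranged from 0.70 to 0.83. Other list medians moved more, such as that of proliferation from 0.06 to 0.29 and of fibroblasts from 0.14 to 0.41. A replicate block on the 8 KEAP1-KO tumors left limma with 0 called rows (0 higher with a symbol), with 2173 at an unadjusted p under 0.05. Same-numbered tumors of both experiments correlated in their deviations by -0.05 to 0.03, and only tumors numbered 4 correlated best with their own number, so the numbers are not taken as pairs. A random block of same-numbered tumors within each experiment, which assumes that they share a host, gave 42 called rows (36 higher with a symbol). With this random block, 5 of 29 called genes named by the rule lost their call. No called row changed sign in a fit that tested it. Fewer tumors and fewer degrees of freedom come with the block and with leaving a tumor out; for the other settings the cause was not tested. Depth limits rows near 2, the value of no reads.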
